A study of Mus musculus with 15 samples.

Results

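The translation elongation factors described here are 8 mouse genes, Eef1a1, Eef1a2, Eef1b2, Eef1d, Eef1g, Eef2, Eef2k and Tpt1, out of 55487 genes in each count table. They were chosen by name as a family, with the kidney disease against wild-type values of these libraries already known, in which Eef1a1 stood among the higher genes. The difference between the groups is therefore given for the family as a description. All 8 were counted in every library and all 8 were among the 20718 genes with enough counts to be tested.

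During elongation, eEF1A in its GTP form carries each aminoacyl-tRNA to the ribosome, the eEF1B complex reloads eEF1A with GTP, and eEF2 moves the ribosome along by one codon. eEF2 kinase, which is switched on by calcium and calmodulin, phosphorylates eEF2 and slows this step. Vertebrates have a pair of eEF1A proteins from separate genes: eEF1A1 is made in nearly all cells, while eEF1A2 is the form of adult skeletal muscle, heart and neurons.

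RNA came from a piece of left ventricle, cut at the midline of its free wall, of males aged 225 days. The 7 kidney disease mice carried a mutation of Col4a5, which encodes a chain of type IV collagen in the glomerular basement membrane, and the 8 wild-type mice were littermates on the same normal chow. The labels call the mutation a knockdown, the design text calls the animals collagen IV knockouts, and the labels put the mutants at the equivalent of human chronic kidney disease stage 4-5 at this age. Sample titles name isoflurane and the protocol names ketamine with xylazine as the anaesthetic for both groups; libraries were made after removal of ribosomal RNA.

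The kidney disease libraries held 54263014 to 65519279 counts each, and those of wild type 48748379 to 57962094. Col4a5, the targeted gene, had 522 to 1111 counts in the kidney disease libraries and 2442 to 3620 in the wild-type libraries, so the groups did not overlap. The gene with the most counts was mt-Co1, of the mitochondrial genome, in 10 libraries and Ttn, which encodes titin, in kidney disease 4, 5 and 7 and wild type 6 and 7. The summed level of 9 cardiomyocyte markers was 102400 to 122300 CPM (counts scaled to library size) in the kidney disease libraries, against 119700 to 127500 CPM in the wild-type libraries. Most of this sum was Ttn (mean 43040 CPM in kidney disease and 45690 in wild type) and Myh6 (37400 and 43630). The log2 differences of the 9 markers ran from -0.30 (Actc1) to 0.07 (Myl3), and none passed the test over all genes. Fewer cells of a type and less RNA per cell cannot be told apart in such bulk libraries, and p-values measure the spread between these animals.

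Eef1a1 and Eef1a2 are the closest pair of the family. The annotated coding sequences, taken as the longest open reading frame of the main transcript, had 1389 bases in Eef1a1 and 1392 in Eef1a2, and 80.13% of the aligned bases were identical. The longest run without a difference was 23 bases. Gm13456, a processed pseudogene of Eef1a1 on chromosome 2 (40555752 to 40557116), was 98.61% identical to the Eef1a1 coding sequence, with 19 differing bases and an identical run of 301 bases. Bases 91 to 180 of the Eef1a1 coding sequence and the aligned bases of the other sequences are shown because they bear on which reads can be told apart. Capitals mark bases that differ from Eef1a1, 13 in Eef1a2 and 1 in Gm13456.
Eef1a1: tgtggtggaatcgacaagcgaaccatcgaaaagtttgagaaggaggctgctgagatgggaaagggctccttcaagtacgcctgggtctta
Eef1a2: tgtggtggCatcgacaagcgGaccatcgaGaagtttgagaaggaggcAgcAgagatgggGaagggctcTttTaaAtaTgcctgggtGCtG
Gm13456: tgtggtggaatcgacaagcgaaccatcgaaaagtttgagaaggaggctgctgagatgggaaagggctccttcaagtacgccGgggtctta
Differences between Eef1a1 and Eef1a2 were spread along the stretch, while Gm13456 matched Eef1a1 over nearly all of it.

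The start regions of the pair also differed in composition. The windows from RefSeq (GRCm38.p6) run from 250 bases before to 30 bases after the annotated start of transcription, on the minus strand for both genes, at chr9:78481695-78481974 for Eef1a1 and chr2:181156986-181157265 for Eef1a2. They are shown to describe the pair, and no link of these sequences to the difference between the groups was tested. Capitals mark matches to GGGCGG, the core of the GC box, or to TATAA, the core of the TATA box, on either strand, with CCGCCC the reverse of GGGCGG.
Eef1a1: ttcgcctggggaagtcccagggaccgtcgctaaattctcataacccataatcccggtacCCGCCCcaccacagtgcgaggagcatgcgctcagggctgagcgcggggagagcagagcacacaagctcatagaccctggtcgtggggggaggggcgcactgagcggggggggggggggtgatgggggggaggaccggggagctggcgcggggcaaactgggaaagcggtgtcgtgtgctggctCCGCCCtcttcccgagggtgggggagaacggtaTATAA
Eef1a2: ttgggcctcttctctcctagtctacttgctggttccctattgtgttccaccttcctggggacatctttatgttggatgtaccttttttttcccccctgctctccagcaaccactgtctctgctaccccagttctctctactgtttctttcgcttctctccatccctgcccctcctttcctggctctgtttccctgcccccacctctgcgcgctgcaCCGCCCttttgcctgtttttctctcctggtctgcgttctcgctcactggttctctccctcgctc
The Eef1a1 window was 66.43% G and C, the Eef1a2 window 54.64%, and the median of all 32851 windows was 52.5%. Counted from the annotated start as position 1, Eef1a1 held GGGCGG or its reverse at positions -191 and -8. Its TATAA was at position 26, after the annotated start. Eef1a2 held GGGCGG at position -34 and no TATAA in this window. Windows were matched for 6 of the 8 genes: 4 held GGGCGG, as did 34.69% of all windows, and 2 (Eef1a1 and Eef2) held TATAA, as did 24.04% of all windows.

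Eef1a1 (ENSMUSG00000037742, chromosome 9, 78478449 to 78489151, minus strand, GRCm38) encodes the widely made form of eEF1A. Its level in kidney disease libraries 1 to 7 was 659.3, 663.5, 748.4, 631.8, 596.2, 802.4 and 683.0 CPM. Its level in wild-type libraries 1 to 8 was 498.3, 520.2, 495.3, 506.7, 448.6, 444.6, 499.3 and 546.2 CPM. Every kidney disease library lay above every wild-type library, with kidney disease 6 the highest and kidney disease 5 the lowest of its group. The means were 683.5 ± 70.3 CPM (SD, n = 7) and 494.9 ± 34.1 CPM (SD, n = 8), a 1.381-fold difference. The fitted log2 difference was 0.47 (SE 0.07, 95% interval 0.33 to 0.61). It was among the genes called higher by edgeR's quasi-likelihood test at an adjusted p under 0.05.

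Eef1a2 (ENSMUSG00000016349, chromosome 2, 181147653 to 181157014, minus strand), the striated muscle and neuron form, had a fitted difference of the opposite sign. Its level in kidney disease libraries 1 to 7 was 1484, 1383, 1434, 1327, 1265, 1422 and 1403 CPM. Its level in wild-type libraries 1 to 8 was 1567, 1449, 1639, 1664, 1600, 1429, 1285 and 1576 CPM. The groups overlapped through wild type 2, 6 and 7, and all 7 kidney disease libraries lay below the wild-type mean. The means were 1388 ± 72.6 CPM (SD, n = 7) and 1526 ± 128 CPM (SD, n = 8). The log2 difference of -0.14 (SE 0.06) did not pass the test over all genes (edgeR adjusted p = 0.38). Its 95% interval, -0.27 to -0.0059, had the same sign throughout, at an unadjusted p of 0.041.

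**Figure D1:**
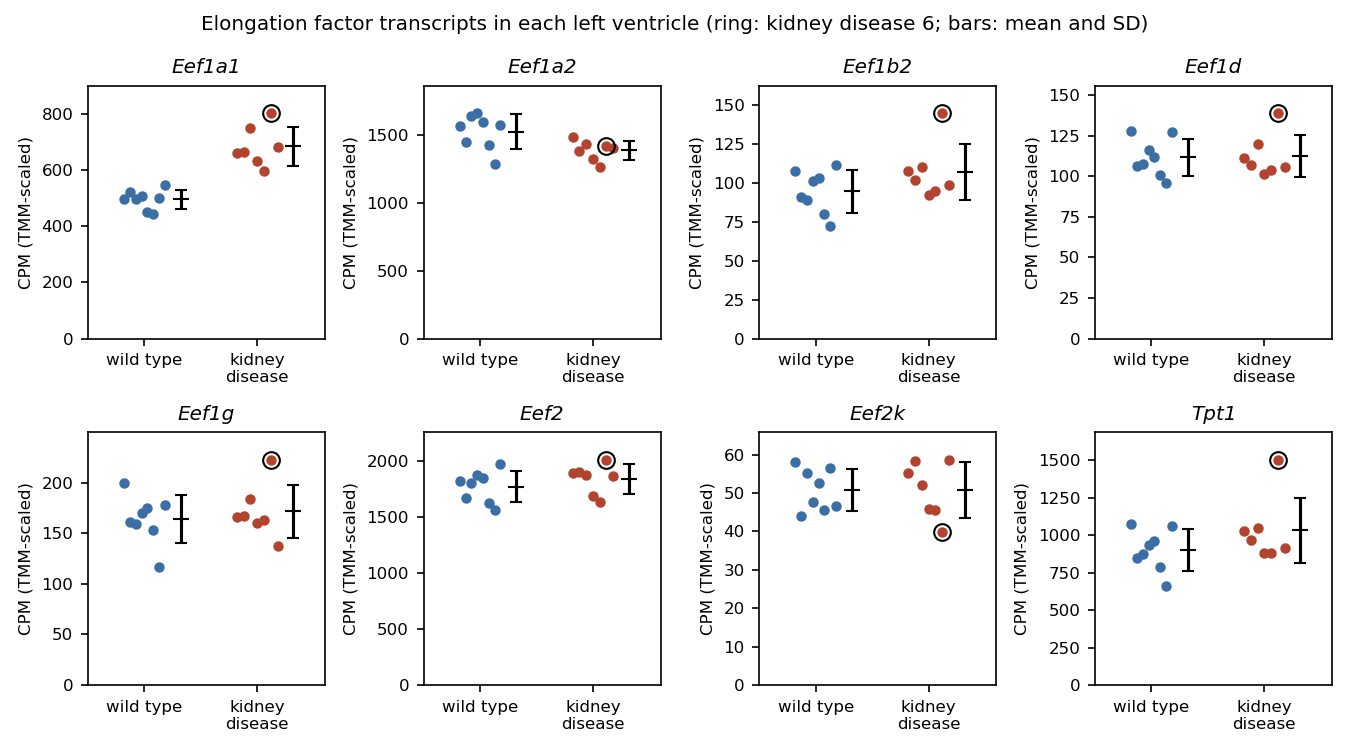
Level of each of the 8 genes in every library, in TMM-scaled CPM on linear axes from 0, with wild type (blue, n = 8) on the left and kidney disease (red, n = 7) on the right of each panel. Points are animals, black bars are the mean and SD, and the ring marks kidney disease 6, which is the highest kidney disease point in 6 panels and the lowest in that of Eef2k; only in the Eef1a1 panel do the groups not overlap.

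Set against each other per kilobase of annotated exon, Eef1a1 was below Eef1a2 in every library. The ratio of Eef1a1 to Eef1a2 was 0.3713, 0.401, 0.4363, 0.398, 0.394, 0.4719 and 0.4069 in kidney disease libraries 1 to 7. In wild-type libraries 1 to 8 it was 0.2657, 0.3001, 0.2527, 0.2545, 0.2343, 0.2601, 0.3248 and 0.2896. The groups did not overlap, and wild type 7, the highest of its group, was nearest to kidney disease 1, the lowest of the other. Eef1a1 made up 29.1% ± 1.62 (SD, n = 7) of the pair in kidney disease and 21.4% ± 1.81 (SD, n = 8) in wild type. The sum of both genes was 940.3 ± 56.6 CPM per kilobase in kidney disease and 930.9 ± 64.2 in wild type, a ratio of means of 1.01, and the 2 ranges overlapped. The make-up of the pair thus differed while the means of its summed level lay well within 1 SD of each other. The ratio uses the values that chose the family and was not tested. With the length of the main transcript in place of all exons, a choice made after the data were seen, the ratio was 0.572 ± 0.0457 (SD, n = 7) and 0.379 ± 0.0412 (SD, n = 8). On that length the sum was 1047 ± 66.4 CPM per kilobase (SD, n = 7) and 1008 ± 66.0 (SD, n = 8). The ratio of these means was 1.039 and the ranges overlapped, so how close the sums lay depended on the length used.

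**Figure D2:**
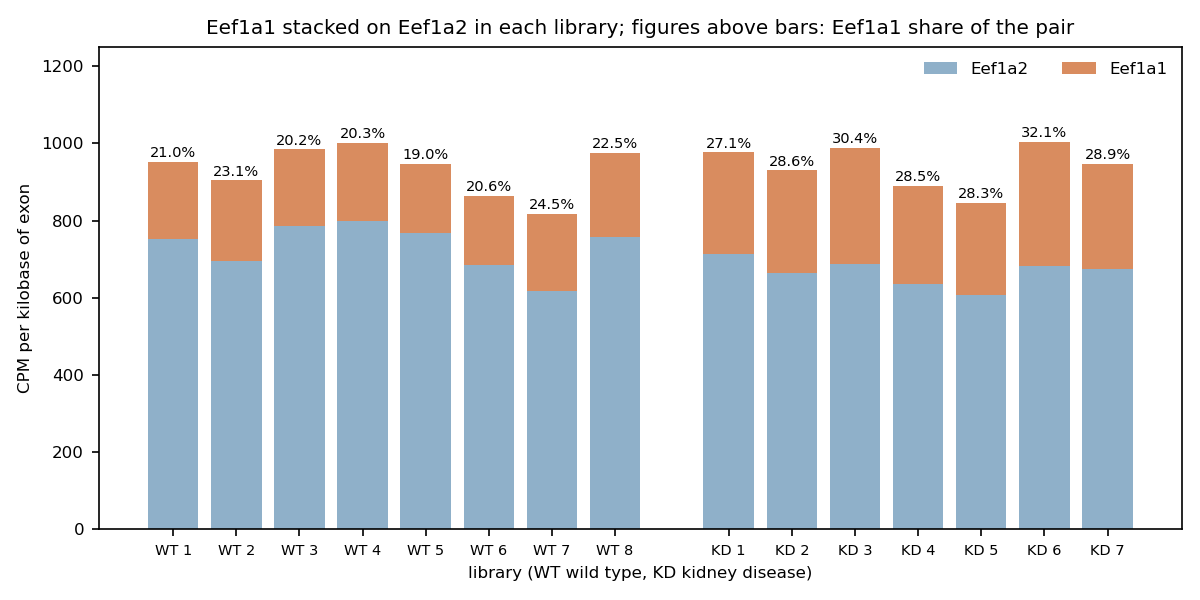
Level of Eef1a2 (blue) with Eef1a1 (orange) stacked on it in each library, in CPM per kilobase of exon, with wild-type libraries on the left and kidney disease libraries on the right. The number above a bar is the percentage of the pair that is Eef1a1, 18.98 to 24.52 in wild type and 27.08 to 32.06 in kidney disease, while the height of the bars overlaps between the groups.

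The eEF1B complex, which exchanges GDP for GTP on eEF1A, is encoded by Eef1b2 and Eef1d, its nucleotide exchange subunits, and Eef1g, a structural subunit. Eef1b2 (ENSMUSG00000025967, chromosome 1, 63176825 to 63180486, plus strand) was at 107.3, 102.1, 110.4, 91.86, 94.59, 144.8 and 98.31 CPM in kidney disease libraries 1 to 7. It was at 107.6, 91.19, 88.8, 100.9, 103.2, 80.24, 72.08 and 111.5 CPM in wild-type libraries 1 to 8. The groups overlapped, and kidney disease 6 stood apart above the other 14 libraries. The log2 difference was 0.18 (SE 0.10, 95% interval -0.03 to 0.39, edgeR adjusted p = 0.51), and 0.0931 without kidney disease 6.

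Eef1d (ENSMUSG00000055762, chromosome 15, 75894205 to 75909556, minus strand) ran from 101.3 to 139.0 CPM with a median of 106.9 in kidney disease libraries, and from 95.75 to 127.9 CPM with a median of 109.8 in wild type. Its log2 difference was 0.01 (SE 0.08, 95% interval -0.15 to 0.17, edgeR adjusted p = 0.98), with the sign turned without kidney disease 3 (-0.0047), kidney disease 6 (-0.0468), wild type 6 (-0.0092) or wild type 7 (-0.0184). Eef1g (ENSMUSG00000071644, chromosome 19, 8967041 to 8978479, plus strand) ran from 137.7 to 222.7 CPM with a median of 166.4 in kidney disease libraries, and from 116.3 to 199.4 CPM with a median of 165.6 in wild type. The medians of these subunits lay close together, and the highest kidney disease value of both was again that of library 6. The log2 difference of Eef1g was 0.07 (SE 0.10, 95% interval -0.15 to 0.28, edgeR adjusted p = 0.87), and -0.0083 without that library. None of the 3 subunits passed the test, and the intervals reach changes of up to 0.39 on the log2 scale in Eef1b2.

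Eef2 (ENSMUSG00000034994, chromosome 10, 81176631 to 81182498, plus strand), the translocase, was at 1893, 1898, 1875, 1690, 1636, 2013 and 1866 CPM in kidney disease libraries 1 to 7. It was at 1824, 1666, 1803, 1872, 1847, 1629, 1563 and 1974 CPM in wild-type libraries 1 to 8. The groups overlapped over most of their range. The log2 difference was 0.05 (SE 0.06, 95% interval -0.08 to 0.19, edgeR adjusted p = 0.82). Eef2k (ENSMUSG00000035064, chromosome 7, 120842831 to 120907450, plus strand), the kinase that inhibits eEF2, ran from 39.74 to 58.69 CPM with a median of 52.09 in kidney disease libraries, and from 43.99 to 57.98 CPM with a median of 50.09 in wild type. Both group means were 50.8 CPM, and the 95% interval of the log2 difference was -0.18 to 0.18 (SE 0.09, edgeR adjusted p = 0.9992). The library with the lowest Eef2k was kidney disease 6, which had the most Eef2 of its group.

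Tpt1 (ENSMUSG00000060126, chromosome 14, 75845093 to 75848525, plus strand) encodes the translationally controlled tumour protein, which binds eEF1A and its exchange factor. It was at 1030, 965.6, 1046, 879.0, 877.8, 1504 and 914.9 CPM in kidney disease libraries 1 to 7 and at 1071, 848.8, 872.1, 936.0, 963.1, 788.6, 660.0 and 1058 CPM in wild-type libraries 1 to 8. Kidney disease 6 stood far above the rest and wild type 7 below the rest, and the other libraries of the groups overlapped. The log2 difference was 0.20 (SE 0.12, 95% interval -0.05 to 0.44, edgeR adjusted p = 0.54), and 0.0818 without kidney disease 6.

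Over the family, 1 of 8 genes was called higher and 0 were called lower, against 0.811% higher and 0.473% lower of all 20718 genes and 1.28% in either direction. The median log2 difference was 0.06 over the 8 genes and 0.0042 over all genes tested. Kidney disease libraries all lay above wild-type libraries in 1 of the 8, against 0.386% of all genes, and all below in 0 of the 8, against 0.179%. Since Eef1a1 was known when the family was put together, nothing is read from these shares. At an unadjusted p under 0.05 edgeR placed 2 of the 8 genes, Eef1a1 and Eef1a2, beside 2568 of all 20718, and DESeq2 and limma-voom each called 1 gene, Eef1a1.

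Markers of some other cell types moved with kidney disease beside Eef1a1. Of 12 macrophage markers, 9 were called higher, and their summed level was 439.5 to 619.3 CPM in the kidney disease libraries, against 321.7 to 384.9 CPM in those of wild type. Of 6 B cell markers, 5 were called higher, at summed levels of 16.87 to 27.41 and 7.097 to 15 CPM, and of 10 fibroblast markers 5 were called higher, at 2266 to 2876 and 2221 to 2584 CPM. Gsn, which was not called, had the highest mean of the fibroblast markers (1397 CPM in kidney disease and 1324 in wild type). No marker was called lower. Of all 20718 genes tested, 0.811% were called higher and 0.473% lower, so 0 calls in a short list says little. None of 8 endothelial, 5 tested T cell, 8 smooth muscle and pericyte, 9 cardiomyocyte, 4 atrial, 4 tested adipocyte and 6 erythroid markers was called in either direction, at summed levels in kidney disease and wild type of 1008 to 1213 and 938.2 to 1235 CPM (endothelial), 1.597 to 3.589 and 1.738 to 2.989 (T cell), 673.5 to 880.8 and 693.2 to 854.4 (smooth muscle and pericyte), 29.16 to 1378 and 34.43 to 1169 (atrial), 0.3078 to 25.5 and 3.248 to 48.55 (adipocyte), and 310.3 to 822.3 and 558.9 to 1076 (erythroid). At an unadjusted p under 0.05 edgeR placed all 6 erythroid markers, each lower, from -1.41 (Slc4a1) to -0.52 (Hbb-bs) on the log2 scale. It also placed 3 cardiomyocyte, 2 endothelial, 2 smooth muscle and pericyte, 1 adipocyte, 0 T cell and 0 atrial markers, beside 2568 of all 20718 genes. No marker of any list was at 0 in all libraries. Kidney disease 6, with the most Eef1a1, also had the most macrophage markers (619.3 CPM) and the most smooth muscle and pericyte markers (880.8 CPM) of its group. The same library had the fewest cardiomyocyte, fibroblast, atrial, adipocyte and erythroid markers of its group. Genes of the mitochondrial genome took 10.5% to 12.8% of the counts in kidney disease, against 11.7% to 14.4% in wild type, with all 7 kidney disease libraries below the wild-type mean. The part of these cells and of this share in the Eef1a1 difference was not tested. With the mitochondrial genes removed before scaling, the log2 difference of Eef1a1 was 0.4687. That run changes the library totals and scaling and does not measure the part of this share.

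Ordered by level per kilobase of annotated exon, the wild-type means ran from Eef1a2 (732.3 CPM per kilobase) through Eef2 (533.2), Tpt1 (378.0), Eef1a1 (198.5), Eef1g (63.1), Eef1b2 (37.3) and Eef1d (17.2) to Eef2k (6.85). Each gene in this order was above the next in 8 of 8 wild-type libraries, and no 2 neighbours had overlapping ranges. In kidney disease the order of the means was the same, but Tpt1 was above Eef2 in library 6, and the ranges of Eef1g and Eef1b2 overlapped. Exons of rarer transcripts count in these lengths. Per kilobase of the main transcript, Tpt1 came first in wild type (769.6), ahead of Eef1a2 (732.3) and Eef2 (573.8), with overlapping ranges. On that scale Eef1b2 (48.7) and Eef1d (48.3) could not be ordered, while Eef1a1 (275.9) was still above Eef1g (88.0) and Eef2k (7.71) last. The place of Tpt1 and the separation of Eef1b2 from Eef1d therefore depended on the length used, and the place of the kinase gene below its substrate gene did not.

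Pseudogenes bear on the measurement of these genes, since spliced transcripts of elongation factors have been copied into the genome many times and a read that fits several places can be dropped or assigned to a copy. Annotated pseudogenes that matched a member at 80% identity or more over at least 200 bases numbered 20 for Eef1a1, 10 for Eef1g, 9 for Tpt1, 5 for Eef2, 2 for Eef1d and 1 for Eef1b2, with 0 counts in some. Their counts, as a share of member plus pseudogenes, were 9.578% to 12.16% for Eef1a1, 8.816% to 11.94% for Eef1g, 7.126% to 8.225% for Tpt1, 1.176% to 1.464% for Eef2, 1.47% to 2.48% for Eef1d and 0.644% to 1.768% for Eef1b2. For Eef1a1 the share was 10.8% ± 0.609 (SD, n = 7) in kidney disease and 11.2% ± 0.504 (SD, n = 8) in wild type, a gap within 1 SD of either group. These are counts as assigned by the authors, and how many Eef1a1 reads were dropped or assigned to copies is not known from them.

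The copies of Eef1a1 differed between the groups in the direction of their source gene. All 12 Eef1a1 pseudogenes with enough counts were higher in kidney disease by their fitted values, with a median log2 difference of 0.38. Of these, 4 were called higher by edgeR, against 0.811% of all genes tested. Gm13456 had 1221 to 1887 counts in the kidney disease libraries and 877 to 1192 in the wild-type libraries, and its log2 difference was 0.40 (SE 0.06, edgeR adjusted p = 0.0068). AC133509.1, on chromosome 19 (17926623 to 17928009), had 732 to 970 and 407 to 618 counts, with a log2 difference of 0.51 (SE 0.08, edgeR adjusted p = 0.0058). Neither pair of count ranges overlapped. These are raw counts, and mean library totals were 58980000 in kidney disease and 52610000 in wild type. Raw counts of Eef1b2 and Tpt1 also did not overlap between the groups, although their CPM did. The copies are near-identical to Eef1a1 and how reads with several matches were assigned is not known. The copies therefore add no separate evidence. With the pseudogene counts added to Eef1a1, its log2 difference was 0.4581.

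Of the pseudogenes of the other members, 0 were called, against 1.28% of all genes tested. Tpt1-ps3, identical to Tpt1 over its aligned 519 bases, had 42404 counts over all libraries, the most of any copy, with 4488 of them in kidney disease 6, and its log2 difference was 0.15 (SE 0.10, edgeR adjusted p = 0.63). Tpt1-ps6 was at 0.23 (SE 0.12, adjusted p = 0.49). Library 6 was high in the copy as it was in Tpt1. The most counted copies of Eef1g, Gm4366 and Gm5525, were at -0.04 (SE 0.11) and -0.03 (SE 0.11), those of Eef2, Gm13050 and Gm11400, at 0.03 (SE 0.06) and -0.02 (SE 0.10). The Eef1b2 copy Gm43712 was at 0.29 (SE 0.22) and the Eef1d copy Gm11675 at -0.16 (SE 0.14), while the second Eef1d copy, Gm12848, had 53 counts in all and was not tested. Other overlaps took at most 6.95% of a member's exon bases. Eef1b2 shared 176 exon bases with Gm27390 on the same strand and 9 with Ndufs1 on the opposite strand. Eef1a1 shared 108 (4.33%) with Gm26377 on the same strand. Eef2k shared 101 with the antisense gene Gm15774, and Eef1d shared 277 with Naprt on the same strand. Gm27390 and Gm26377 had 0 counts in all libraries.

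**Figure D3:**
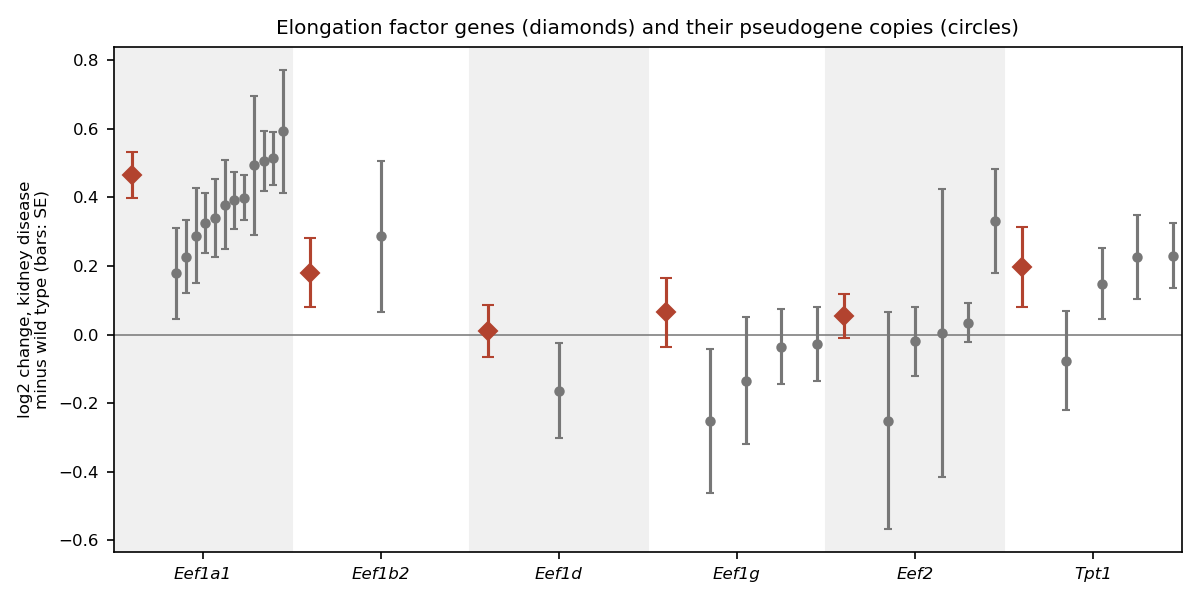
Fitted log2 difference, kidney disease minus wild type, of each member with pseudogenes (red diamonds) and of its tested pseudogenes (grey circles), with bars for 1 SE; shaded bands separate the families. All 12 Eef1a1 copies lie above 0, from 0.18 to 0.59, while the 4 tested copies of Eef1g lie below 0, from -0.25 to -0.03, and those of Eef2 and Tpt1 lie on both sides.

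Variation between animals of the same group was a measure that the choice of the family did not use. After each group's mean was taken from log2 CPM, Eef1a1 was correlated with the other 7 genes over the 15 libraries, in 7 relations with p-values from 100000 permutations within groups. With Eef1d the Pearson r was 0.698 (permutation p = 0.0060, adjusted p = 0.042) and Spearman's coefficient was 0.604 (permutation p = 0.023, adjusted p = 0.070). Pearson r was 0.619 with Eef1b2 (permutation p = 0.018), 0.611 with Tpt1 (p = 0.024) and 0.587 with Eef2 (p = 0.025), each at an adjusted p of 0.044. Spearman's coefficient was 0.571, 0.546 and 0.475 for these 3, at permutation p of 0.030, 0.040 and 0.080 and adjusted p of 0.070, 0.070 and 0.11. By Pearson's measure 4 of 7 relations passed, and by Spearman's 0 did.

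For the genes that did not pass, r was 0.409 with Eef1g (permutation p = 0.14, adjusted p = 0.19), 0.299 with Eef1a2 (p = 0.25, adjusted p = 0.29) and -0.202 with Eef2k (p = 0.52, adjusted p = 0.52). Spearman's coefficient was 0.568 (permutation p = 0.032, adjusted p = 0.070), 0.239 (p = 0.38, adjusted p = 0.45) and -0.118 (p = 0.69, adjusted p = 0.69). Without the 2 libraries farthest from the median of Eef1a1, kidney disease 5 and 6, r fell to 0.532 with Eef1d, 0.388 with Eef1b2, 0.321 with Tpt1, 0.372 with Eef2, 0.177 with Eef1g, 0.150 with Eef1a2 and -0.0268 with Eef2k. Without kidney disease 6 alone, 0 of 7 relations passed, and r with Eef1d was 0.5365 (permutation adjusted p = 0.29). In the 10 libraries led by mt-Co1, 0 of 7 passed, with r of 0.686 for Eef1d, 0.571 for Eef1b2, 0.580 for Tpt1, 0.292 for Eef2, 0.548 for Eef1g, -0.2178 for Eef1a2 and -0.751 for Eef2k. The 5 libraries led by Ttn are too few for a value. Leaving out any 1 of kidney disease 2 to 7 or wild type 3, 4, 6 and 8 also left 0 relations past the threshold, and leaving out wild type 1 left 1. When kidney disease 1, wild type 2, wild type 5 or wild type 7 was left out, 4 passed. The Pearson relations were thus near the threshold, and all values of a library share its depth and scaling.

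Among 12468 protein-coding genes with a mean of at least 1 CPM, those with the highest group-centred Pearson r to Eef1a1 over the 15 libraries were Mrpl24 (0.884), Tmem50a (0.864), Gatd1 (0.861), Exosc1 (0.856) and Smagp (0.847). Without kidney disease 6 these values were between 0.7746 and 0.8464. By the same measure Eef1d ranked at 157, Eef1b2 at 548, Tpt1 at 620, Eef2 at 817, Eef1g at 2639, Eef1a2 at 3853 and Eef2k at 8997. The family's own members were therefore not the genes most like Eef1a1 in how they varied between animals.

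The rest of the translation machinery was taken from 5 lists of 95 genes, of which 94 were tested and 0 were called by edgeR, against 1.28% of all genes. At an unadjusted p under 0.05 there were 10 of the 94, beside 2568 of all 20718 genes, and DESeq2 called 1, Rps6ka1. None of these 94 genes had a fitted difference as large as that of Eef1a1. Since Eef1a1 was known to be among the higher genes when the family was chosen, nothing is read from this.

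Among other elongation factors and the enzymes that modify them, 19 of 20 were tested and the median log2 difference was 0.02. The ends of the range were Eef1akmt1, a lysine methyltransferase of eEF1A, at -0.19 (SE 0.11, edgeR adjusted p = 0.53) and Dph7, of the pathway that makes diphthamide on eEF2, at 0.23 (SE 0.10, adjusted p = 0.35). Vars, the valyl-tRNA synthetase that binds the eEF1 complex, was at -0.08 (SE 0.05) and Dph5, of the diphthamide pathway, at 0.12 (SE 0.08). The enzymes that modify eEF1A and eEF2 thus lay on both sides of 0.

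The 5 elongation factors of mitochondria had a median of -0.05, with Gfm2, a mitochondrial ribosome recycling factor, lowest at -0.17 (SE 0.06, edgeR adjusted p = 0.24). Gfm1, the mitochondrial counterpart of eEF2, was at -0.12 (SE 0.07), Tufm, that of eEF1A, at -0.05 (SE 0.07) and Guf1 at 0.08 (SE 0.08). The 8 termination, recycling and rescue factors had a median of 0.01, with Gspt1 and Gtpbp1 at -0.08, Etf1, the release factor that reads stop codons, at 0.07, Hbs1l at 0.04 and Gspt2 at 0.09. Initiation factors numbered 40 and had a median of 0.04. The largest unadjusted evidence among them was for Eif4g1, the scaffold of the cap-binding complex, at -0.17 (SE 0.06, edgeR adjusted p = 0.22), followed by Eif2b3 and Eif6, both at 0.16 (SE 0.07), and Eif4e3 at -0.14 (SE 0.06).

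Of 22 genes that act upstream of elongation, the median was -0.02. Rps6ka1, a p90 ribosomal S6 kinase that can phosphorylate and inhibit eEF2 kinase, was at 9.79 ± 0.667 CPM in kidney disease (SD, n = 7) and 8.15 ± 0.786 CPM in wild type (SD, n = 8). Its log2 difference was 0.26 (SE 0.07, edgeR adjusted p = 0.079), and it passed with DESeq2 (adjusted p = 0.027) and in edgeR without wild type 8 (adjusted p = 0.040). Prkab2 and Prkab1, regulatory subunits of the AMP-activated kinase that activates eEF2 kinase, were at -0.23 (SE 0.07, edgeR adjusted p = 0.17) and 0.16 (SE 0.06, adjusted p = 0.26). Rptor, a part of the mTOR complex 1 that restrains it, was at -0.16 (SE 0.06, adjusted p = 0.22). None of these genes passed the test over all genes in the edgeR fit of the 15 libraries.

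**Figure D4:**
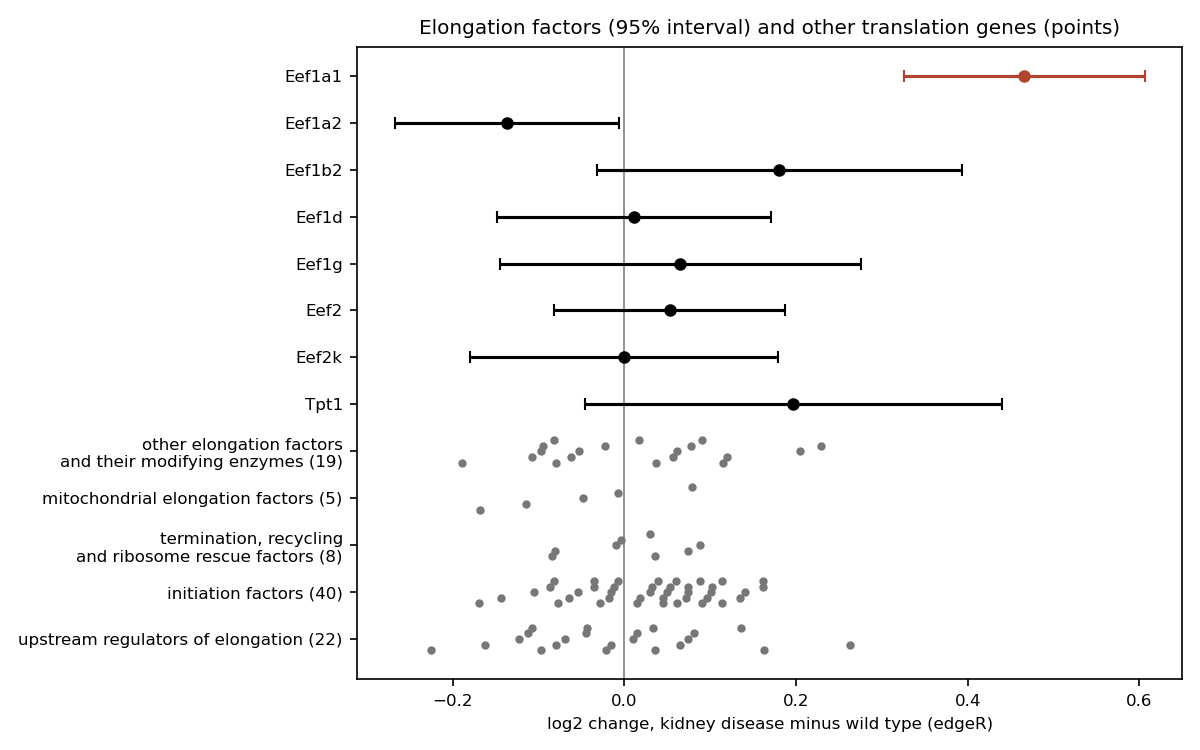
Fitted log2 difference, kidney disease minus wild type, of the 8 elongation factor genes with 95% intervals (red where called at an adjusted p under 0.05, black otherwise) and of 94 other translation genes as grey points, grouped by list with the number of genes in brackets. Eef1a1, at 0.47 and known to be high when the family was chosen, lies to the right of every other gene, and the points of each list spread to both sides of 0.

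The libraries that shared a leading gene were also compared among themselves, as a description, since the Eef1a1 difference is among the values the family was chosen with. In the 10 libraries led by mt-Co1 the log2 difference of Eef1a1 was 0.5179 and it was called. In the 5 led by Ttn, 3 of kidney disease and 2 of wild type, it was 0.427 and was not called (edgeR adjusted p = 0.30, in a subset with 3 calls among all genes). With the leading gene as a covariate it was 0.4878. The Eef1a2 difference was -0.143 in the libraries led by mt-Co1 and -0.0324 in those led by Ttn, neither past the threshold, and whether it differed between these subsets was not tested.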

How the data were processed

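RNA of 15 left ventricles was sequenced, with 1 count table for each library. The authors deposited raw counts per gene, made with bcl2fastq, STAR 2.7.9a, Subread and featureCounts 2.0.3 on GRCm38, per the submitters' processing notes; how strand and reads with several matches were treated is not given in the sources used. The CPM and FPKM values that the authors deposited were recomputed from the counts within a relative tolerance of 1e-06 and not used further. Of 55487 identifiers, 55227 were found in GENCODE M21, which gave symbols, and 99.4% had the same coordinates.

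Counts were filtered with filterByExpr (minimum count 10), scaled with TMM and compared by edgeR's quasi-likelihood test (edgeR 4.0.16 in R 4.3.3), in which the group was the only factor. The Benjamini-Hochberg adjustment covered all 20718 genes, and at an adjusted p under 0.05 168 genes were higher and 98 lower. Differences are kidney disease minus wild type. DESeq2 1.42.0 and limma-voom (limma 3.58.1) served as alternatives. The fit was tested on simulated counts with known changes. Pseudogenes were matched with blastn 2.17.0. Correlations used log2 CPM with a prior count of 2. Each library held 48748379 counts or more. For the 8 members, with 2258 counts or more in each library, counting error is small beside the spread between animals. It is a larger part of the spread in genes with few counts, such as B cell and T cell markers and the least counted pseudogenes. No 2 libraries of a group held identical counts over 49 pairs.

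Named genes are the 8 members, the 4 genes of each translation list with the smallest p and the 5 genes most like Eef1a1. The 2 most counted pseudogenes of each member and Col4a5 are also named. Those at the ends of a list's range, Ndufs1, Gm27390, Gm26377, Gm15774 and Naprt were named after their values were seen. The members, lists and marker genes were chosen with earlier results of these data known.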

Additional observations from a re-analysis of the deposited data

Results flagged for a closer look

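In 20 groups of values searched (each gene and 2 pair measures in each group), 2 held a library far from the others by Dixon's criterion, and chance gives about 1 in 20. Eef1b2 was at 144.8 CPM in kidney disease 6, with the next library of the group at 110.4. Tpt1 was at 1504 CPM in kidney disease 6, with the next at 1046. Both values are from the same library, which was also the highest of its group in Eef1a1, Eef1d, Eef1g and Eef2.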

How the results depend on the processing

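Eef1a1 was higher in kidney disease in every alternative run (log2 0.427 to 0.5179, and 0.4232 to 0.4962 leaving out each library), and it lost its call in the libraries led by Ttn, where the members called fell from 1 to 0 (adjusted p of Eef1a1 3.27e-08 to 0.2995 over these alternatives). Leaving out each library kept 1 member called. No pairing by replicate number is stated. Correlations of same-numbered libraries ran from -0.1962 to 0.416 over 7 pairs, 2 above 0.1. Of the kidney disease libraries, 2 correlated best with their own number. So few pairs cannot settle whether the numbers pair the samples. With the replicate block, Eef1a1 was at 0.4865 and 1 member was called, with 66 genes (0.3186%) higher and 50 (0.2413%) lower among all genes. The other translation genes called were 1 with DESeq2 and 0 to 1 leaving out each library. Genes called higher, as a percentage of the 20718 tested with all libraries, were 0.8109% in the edgeR fit of the report, 1.829% with DESeq2, 1.617% with the leading gene as a covariate, 0.2413% in the libraries led by mt-Co1, 0.004827% in those led by Ttn and 0.3234% (without wild type 5) to 0.946% (without wild type 7) leaving out each library. Genes called lower were 0.473%, and 0.7433% with at least 1 CPM in 7 libraries, 1.26% with DESeq2, 0.9074% with the covariate, 0.1738% in libraries led by mt-Co1, 0.009653% in those led by Ttn, 0.3137% with no filter and 0.1448% (without wild type 5) to 0.9267% (without wild type 7) leaving out each library; the cause was not tested.

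Eef2k, at -0.0003, turned sign with the covariate (0.0023), in libraries led by mt-Co1 (0.0203), with no filter (0.0097), after thinning to equal depth (0.0048) and without mitochondrial genes (0.0014), and ran from -0.0384 to 0.0509 leaving out each library. Leaving out each library, Eef1d ran from -0.0468 to 0.0438 and Eef1g from -0.0083 to 0.1121. The correlations with Eef1a1 that passed numbered 0 in libraries led by mt-Co1, 1 with RLE scaling, 0 with pseudogene counts added and 0 to 4 leaving out each library; the cause was not tested. The r of Eef1a2 turned to -0.2178 in libraries led by mt-Co1, and that of Eef2k ran from -0.3644 to 0.1762 leaving out each library. The difference in the Eef1a1 to Eef1a2 ratio, 0.1386, was 0.1072 in libraries led by Ttn, 0.1926 with the length of the main transcript and 0.1285 to 0.146 leaving out each library.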
